A study of Ursus arctos with 5 samples.

Results

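Enzymes that write or erase marks on histones, the proteins that read those marks, and the ATP-driven machines that move nucleosomes were followed in the gastrocnemius, a calf muscle, of hibernating and active grizzly bears. Members were chosen by gene name, with prefixes such as KDM, KAT, HDAC, SIRT, SETD, MLL, PRMT, SMARC, ARID, CHD, BAZ, BRD and CBX. The rule found 162 assembled transcripts of 74 genes, of 9093 transcripts of 4873 genes that carry a gene name and 26614 transcripts in all. Muscle from 2 captive bears, Tia and Star, was taken in October, when they were active and fed, and in February, when they were hibernating and had not been fed since early November. There was 1 single-end RNA-seq library per bear and state (n = 2 bears per state), with no replicate within a bear. The study describes a subadult and an adult, while the labels give every sample as an adult of 10 years, so age is not used below. The labels name no separate genotype, strain or agent, and the bears are told apart only by the column names of the table.

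Chromatin marks are set by opposing pairs of enzymes. Acetyltransferases (KAT) add acetyl groups to histone lysines and deacetylases (HDAC, SIRT) remove them. Lysine methyltransferases (SETD, MLL, EHMT, SUV420H1, WHSC1) and demethylases (KDM) do the same with methyl groups, and arginine methyltransferases (PRMT) modify arginines. Bromodomain, chromodomain and PHD proteins bind the marks, and SWI/SNF, CHD and ISWI complexes use ATP to slide or evict nucleosomes. In skeletal muscle the class IIa deacetylases HDAC4, HDAC5 and HDAC7 are known for holding MEF2 transcription factors in check.

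Levels are RPKM, the reads of a transcript per kilobase of its length and per mega (M) aligned reads. Whether the single-end cDNA had been normalized by nuclease, which degrades abundant cDNA, is not given. Comparisons of level between genes therefore carry that limit. A change is a difference in log2(RPKM + 0.5), hibernating minus active, between the libraries of the same bear. Unless a bear is named, the 2 bears' changes are averaged, and ± gives the standard error (SE) of limma's fit over all 9093 named transcripts. That fit has no term for the bear. Its SE therefore rests on the differences between the bears within a state, not on the gap between their changes. The log2(RPKM + 0.5) scale understates changes of low transcripts. The libraries held 50.1 M (Tia) and 54.2 M (Star) aligned reads in hibernation and 52.5 M and 44.7 M in activity, and the members took between 0.251% and 0.282% of them. Behind a member's value stood at least 23.0 reads, with a median between 379 and 523 reads per library. Only transcripts at 1 RPKM or more in all 4 libraries were in the table. No named transcript matched DNMT, TET, EZH, MYST, SMARCA4, SMARCA5, SMARCE1 or ARID2, so nothing under these names was analysed here. Acetyltransferases listed under KAT names, KAT6B among them, were.

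Most chromatin genes were expressed at a low level, as were most named genes. Members ranged from 1.05 to 113 RPKM, with a median of 3.61, against 4.29 over all named transcripts. The highest were a transcript of the methyltransferase SETD1B (81.8 to 113 RPKM), the deacetylase HDAC11 (44.4 to 72.3), a short transcript of the remodeller CHD6 (19.3 to 52.2), SETD7 (21.2 to 39.97) and PRMT1 (24.8 to 37.1). The SETD1B transcript stood far above the other transcripts of its gene (1.65 to 4.41 RPKM), as did that of CHD6 (1.26 to 3.44). How the authors assigned reads that fit several sequences is not given in the sources used here, so the level of these 2 genes is uncertain.

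In hibernation, slightly higher values outnumbered lower ones among the chromatin genes, as they did among all named genes. Of the 162 members, 84 (51.9%) were higher in hibernation in both bears, against 47.8% of all named transcripts. Lower in both bears were 14 (8.64%), against 17.2%, and 64 (39.5%) moved in opposite directions in the 2 bears, against 34.9%. With 1 transcript a gene, the one with the most reads, 44 of 74 genes (59.5%) were higher in both bears, against 48.7% of all genes, and 8 (10.8%) were lower, against 16.1%. The median change was 0.17 for the members (0.22 in Tia and 0.18 in Star) and 0.13 for all named transcripts (0.12 and 0.15). The median of the members thus lay slightly above that of all named transcripts. At a mean RPKM of at least 5 it lay slightly below (0.15 against 0.17). The median size of the change, without its sign, was 0.23 for the members and 0.26 for all named transcripts. The 16 transcripts of SMARCA2 had nearly the same values, with changes from -0.06 to 0.16, and the members' signed median change was 0.21 without them.

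The direction of these small shifts depended on how the libraries were scaled. When they were scaled to the median ratio, every change moved by -0.11 in Tia and by -0.22 in Star. Then 56 members (34.6%) were higher in both bears, against 28.9% of all named transcripts, and 35 (21.6%) were lower, against 33.3%. With upper-quartile scaling the numbers were 54 (33.3% against 26.4%) and 38 (23.5% against 36.5%), and the members' median change was 0.0342 and 0.00172 under the respective scalings. Upper-quartile scaling moved changes by -0.19 in Tia and by -0.22 in Star, counted in the same way. Changes up to about the size of the moves under these scalings carry a sign that belongs to the scaling. The family counts below under these scalings have no share by gene beside them, only these shares over all named transcripts.

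**Figure D1:**
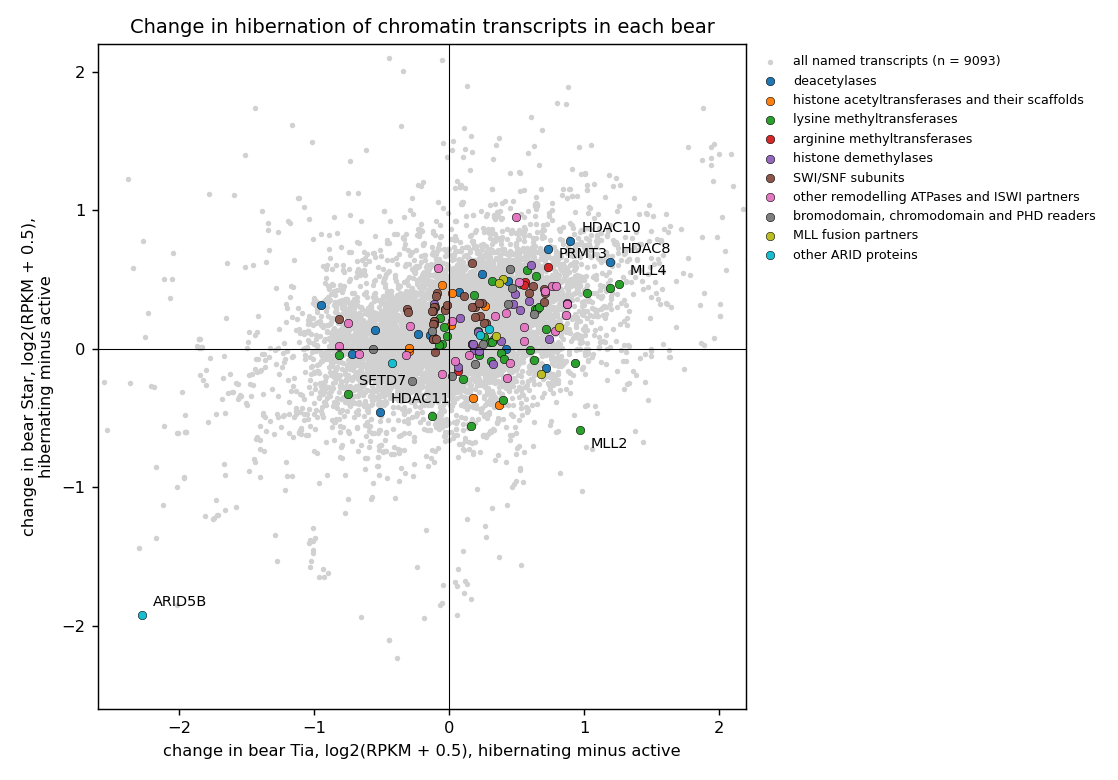
Change of each transcript in Tia (horizontal) and in Star (vertical) on the log2(RPKM + 0.5) scale, hibernating minus active. Coloured points are the 162 members by family and grey points all named transcripts, of which 36 lie beyond the axes (-2.6 to 2.2). Most members sit near the centre within the grey cloud, and ARID5B lies alone among them at -2.27 and -1.93.

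No chromatin transcript passed limma's test at a Benjamini-Hochberg adjusted p of 0.05, and neither did any of the 9093 (percent called 0, lowest adjusted p 0.541). Without adjustment, 17 members of 12 genes (10.5%) had a p under 0.05, against 9.08% of all named transcripts. Of these 16 were higher (9.88%, against 7.19%) and only ARID5B was lower (0.617%, against 1.89%). With 2 libraries against 2, the smallest p that an exact two-sided permutation test of a single gene can give is 0.333. A score modelled on NOISeq, the tool of the study, compares the change of a transcript with the differences between the bears within a state. It reached 0.8 for 2 members (1.23%), ARID5B and HDAC8, against 3.61% of all named transcripts, 1 of them lower (against 1.51%) and 1 higher (against 2.1%). Both hibernating values lay above both active values for 57 members (35.2%, against 34.6%) and below them for 6 (3.7%, against 8.8%). Among these 6 were ARID5B, HDAC11, SETD7, CBX1 and CHD1L. At 1.5-fold in both bears, 5 members were higher (3.09%, against 3.54%), namely HDAC8, PRMT3, a pair of HDAC10 transcripts and a transcript of KDM5C, and ARID5B alone was lower (0.617%, against 1.04%).

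The clearest change of a chromatin gene was the drop of ARID5B, a DNA-binding ARID protein that partners the histone demethylase PHF2 and is known for its part in fat cell formation and lipid metabolism. Its transcript (isotig21152, 3604 bases) stood at 15.9 RPKM in active and 2.89 in hibernating Tia, and at 11.6 in active and 2.69 in hibernating Star. Both hibernating libraries were far below both active ones and close to each other. It was 5.49-fold lower in Tia and 4.32-fold lower in Star, on 522 and 526 reads in hibernation and 3009 and 1874 reads in activity. The mean change was -2.10 ± 0.24 (SE, n = 2 bears; limma adjusted p = 0.541, score 0.946), and it ranked 5 of 9093 by size of the fall, while the next largest fall of a member was -0.54. Without the hibernating library of Star the change was -2.06 and limma's adjusted p was 0.010, in a fit that leaves 1 hibernating library, takes the spread from the active libraries alone and calls 92 named transcripts (1.01%). Over the other left-out libraries the adjusted p reached 0.838, and with the bear as a block it was 0.340. Since the gene was named in the rule with its fall known, these values are a description.

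ARID5B is also used by cells other than muscle fibres, and the levels of some genes of such cells are given here beside it. Of 8 fat cell markers only lipoprotein lipase (LPL) was in the table, at 120 RPKM in active and 63.4 in hibernating Tia, and at 18.8 and 19.8 in Star. The lipogenic enzymes SCD and FASN were lower in both bears, like ARID5B, and summed to 302 and 9.25 RPKM in active and hibernating Tia and to 15.9 and 5.75 in Star. The connective tissue marker FBN1 was also lower in both, at 24.9 and 7.58 RPKM in Tia and at 14.1 and 7.27 in Star. With 1 transcript a gene, the one with the most reads, FBN1 was the only 1 of the 4 connective tissue genes found to be so. On that choice COL3A1 (1.13 in Tia and 0.62 in Star) and COL1A2 (0.54 and 0.17) were higher in both, and COL1A1 moved in opposite directions. Other collagen transcripts fell in both bears, such as COL1A1 isotig20732 (-0.98 in Tia and -0.12 in Star). COL3A1 isotig08494 (-0.67 and -0.22) and COL1A2 isotig30823 (-0.48 and -0.16) did so too. Counting all 20 transcripts, FBN1 included, 5 fell in both bears, 7 rose in both and 8 went opposite ways. The part of other cells in the change was not tested, and in whole muscle fewer cells of a type and less RNA per cell cannot be told apart. The other ARID proteins were low and moved little. ARID4A, a subunit of SIN3 deacetylase complexes, changed by 0.22 ± 0.25 and ARID5A by 0.17 ± 0.38 in the mean. ARID4B, the paralog of ARID4A, was at 5.28 and 3.82 RPKM in active and hibernating Tia and at 3.00 and 2.76 in Star (-0.26 ± 0.32).

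**Figure D2:**
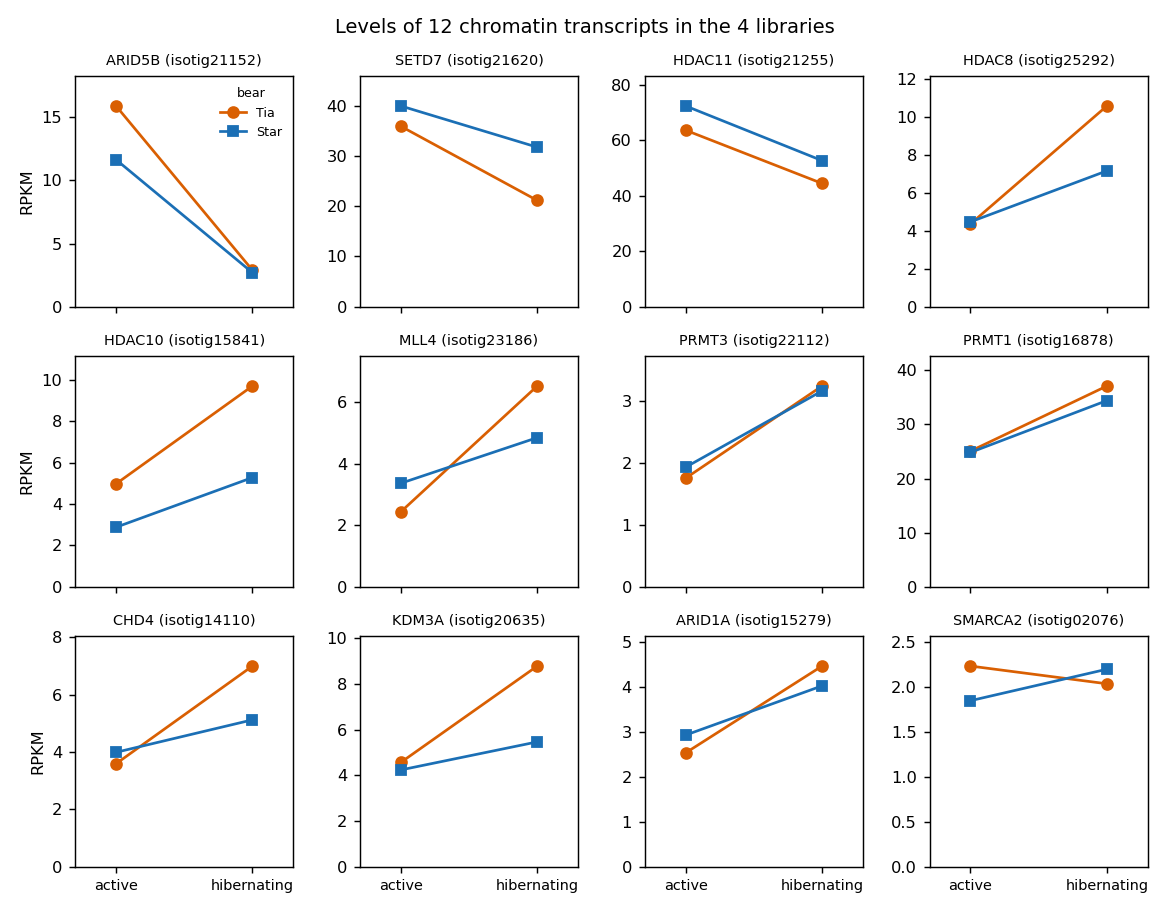
RPKM of 12 chromatin transcripts in the active and hibernating library of Tia (orange circles) and Star (blue squares), each panel from 0 on its own scale, with a line joining the libraries of a bear. ARID5B, SETD7 and HDAC11 were lower in hibernation in both bears, SMARCA2 moved in opposite directions, and the other 8 were higher in both.

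Deacetylases moved in both directions. Of 8 genes, 5 were higher in hibernation in both bears and 1, HDAC11, was lower in both, against 48.7% and 16.1% of all named genes. Under either other scaling 4 were higher and 3 (HDAC11, HDAC5 and HDAC7) lower. HDAC8, a class I enzyme known to act on the cohesin ring, was at 4.37 RPKM in active and 10.6 in hibernating Tia, and at 4.47 and 7.17 in Star. Both active values were nearly equal and both hibernating values lay above them (0.91 ± 0.26, limma adjusted p = 0.541, score 0.813). Under either other scaling, or at a mean RPKM of at least 5, the score of HDAC8 fell below 0.8 and only ARID5B kept the call. HDAC10, a class IIb enzyme that deacetylates polyamines, was at 4.97 and 9.70 RPKM in active and hibernating Tia and at 2.88 and 5.28 in Star. The bears changed alike (0.90 and 0.78), but active Tia was near hibernating Star, so the states did not separate as cleanly and the SE was larger (0.84 ± 0.38, score 0.777).

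HDAC11, the class IV enzyme and a remover of long fatty acyl groups from proteins, was by far the most abundant of the 8 deacetylase genes found. It stood at 63.5 RPKM in active and 44.4 in hibernating Tia and at 72.3 and 52.6 in Star, so that the states did not overlap. The change was -0.48 ± 0.22 (score 0.657), nearly the same in both bears (-0.51 and -0.45). Among the class IIa enzymes HDAC4 changed by 0.24 ± 0.23, HDAC5 by -0.06 ± 0.21 and HDAC7 by -0.21 ± 0.37. HDAC5 was at 15.7 and 13.3 RPKM in active and hibernating Tia and at 14.0 and 15.1 in Star, a move in opposite directions. The MEF2 factors these enzymes hold were higher in hibernation in both bears for each of the 3 genes found of 4, against 48.7% of all named genes. Under either other scaling this held for only 1 of them. MEF2C was at 5.62 and 12.5 RPKM in active and hibernating Tia and at 8.72 and 10.6 in Star (0.68 ± 0.28). MEF2D had a mean change of 0.36 ± 0.25. The NAD-dependent deacetylases SIRT1 (0.39 ± 0.22) and SIRT7 (0.46 ± 0.22), the latter a nucleolar protein, were both higher in both bears. A second, shorter SIRT1 transcript was higher in Tia only (0.72 and -0.14).

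Acetyltransferases and their scaffolds showed little change. Of 5 genes, 2 were higher in both bears (48.7% of all named genes were), 1 was lower in both (16.1%) and 2 moved in opposite directions. Mean changes were between -0.15 and 0.29, and under either other scaling 1 was higher and 1 lower in both. KAT2B (PCAF), the most abundant of them, was at 16.5 and 13.4 RPKM in active and hibernating Tia and at 10.4 and 10.3 in Star. The bears thus differed from each other more than the states did (-0.15 ± 0.29). Its paralog KAT2A (GCN5, listed as KAT2A.1) was nearly level in Tia (3.10 and 2.97 RPKM) and went from 2.37 to 3.45 in Star (0.20 ± 0.24). BRPF1, a scaffold of KAT6 complexes, changed by 0.29 ± 0.21 and BRPF3 by -0.09 ± 0.28, with 0.18 in Tia and -0.36 in Star.

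Among 15 lysine methyltransferase genes, 9 were higher in hibernation in both bears and 1 was lower in both, against 48.7% and 16.1% of all named genes. The medians of the 15 changes were 0.32 in Tia and 0.08 in Star. Under either other scaling 5 were higher and 3 lower in both. The largest mean change upwards was that of MLL4 (listed as MLL4.1, now KMT2B), a methyltransferase of COMPASS-type complexes that mark active promoters. Its longest transcript was at 2.44 and 6.53 RPKM in active and hibernating Tia and at 3.36 and 4.85 in Star (0.86 ± 0.27, limma adjusted p = 0.541). A second transcript of the gene changed by 0.71 ± 0.24, while the remaining pair, of 703 and 729 bases, changed by 0.08 and 0.17. SETD6, known for methylating the NF-kappaB subunit RelA, was at 5.38 and 8.69 RPKM in Tia and at 4.44 and 6.62 in Star (0.59 ± 0.25). All 4 transcripts of SETD5 were higher in both bears, with mean changes between 0.47 and 0.57. EHMT2 (G9a), a silencing methyltransferase, changed by 0.40 ± 0.22, and its partner EHMT1 (GLP) by 0.09 ± 0.28.

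SETD7, a monomethyltransferase of histones and of many other proteins, was the lysine methyltransferase that stood lower. It was at 35.9 RPKM in active and 21.2 in hibernating Tia and at 39.97 and 31.8 in Star. Both hibernating values lay below both active ones (-0.54 ± 0.26, limma adjusted p = 0.588, score 0.67), with changes of -0.75 in Tia and -0.33 in Star. SETD2, which trimethylates histones along transcribed genes, changed by 0.17 ± 0.23, and WHSC1 (NSD2) by 0.18 ± 0.22. SUV420H1 (0.13 ± 0.23) and SETDB2 (0.06 ± 0.21) moved in opposite directions in the bears. SETD3, which belongs here by name but methylates actin, was level in both bears (18.0 and 17.4 RPKM in Tia, 21.96 and 22.5 in Star).

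Arginine methyltransferases were the family in which the bears differed least, with a median gap of 0.14 between their changes over 3 genes. PRMT1 and PRMT3 were higher in both bears under each scaling. PRMT1, the main enzyme for asymmetric dimethylation of arginine, was at 25.1 and 37.1 RPKM in active and hibernating Tia and at 24.8 and 34.4 in Star. The active values were almost equal and both hibernating ones lay above them (0.51 ± 0.20, limma adjusted p = 0.549). PRMT3, an enzyme known for modifying a ribosomal protein, was at 1.76 and 3.25 RPKM in Tia and at 1.94 and 3.17 in Star (0.66 ± 0.20, limma adjusted p = 0.541). PRMT2 did not move with them. It was at 19.4 and 20.3 RPKM in Tia and at 21.2 and 18.9 in Star (-0.05 ± 0.20).

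Of 9 histone demethylase genes, 7 were higher in hibernation in both bears and none was lower in both, against 48.7% and 16.1% of all named genes. Under median-ratio scaling only 3 were higher in both, and under upper-quartile scaling 3 were higher and 1 lower. KDM3A, which removes silencing methyl marks and is induced by low oxygen in many cells, was at 4.57 and 8.79 RPKM in active and hibernating Tia and at 4.24 and 5.47 in Star (0.60 ± 0.28). Its paralog KDM3B changed by 0.40 ± 0.22. KDM5C, an eraser of promoter marks, was higher in both bears for all 3 transcripts, the longest of which was at 5.10 and 7.92 RPKM in Tia and at 5.19 and 6.72 in Star (0.47 ± 0.22). The shortest changed by 0.60 ± 0.22. KDM5A and KDM5B, of the same subfamily, changed in opposite directions in the bears, KDM5A by 0.32 in Tia and -0.11 in Star and KDM5B by -0.11 and 0.32. The smallest mean changes were those of KDM4B (0.10 ± 0.23), KDM5A, KDM5B and KDM1A (0.15 ± 0.20). Those higher in both bears under each scaling were KDM3A, KDM3B and KDM5C.

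**Figure D3:**
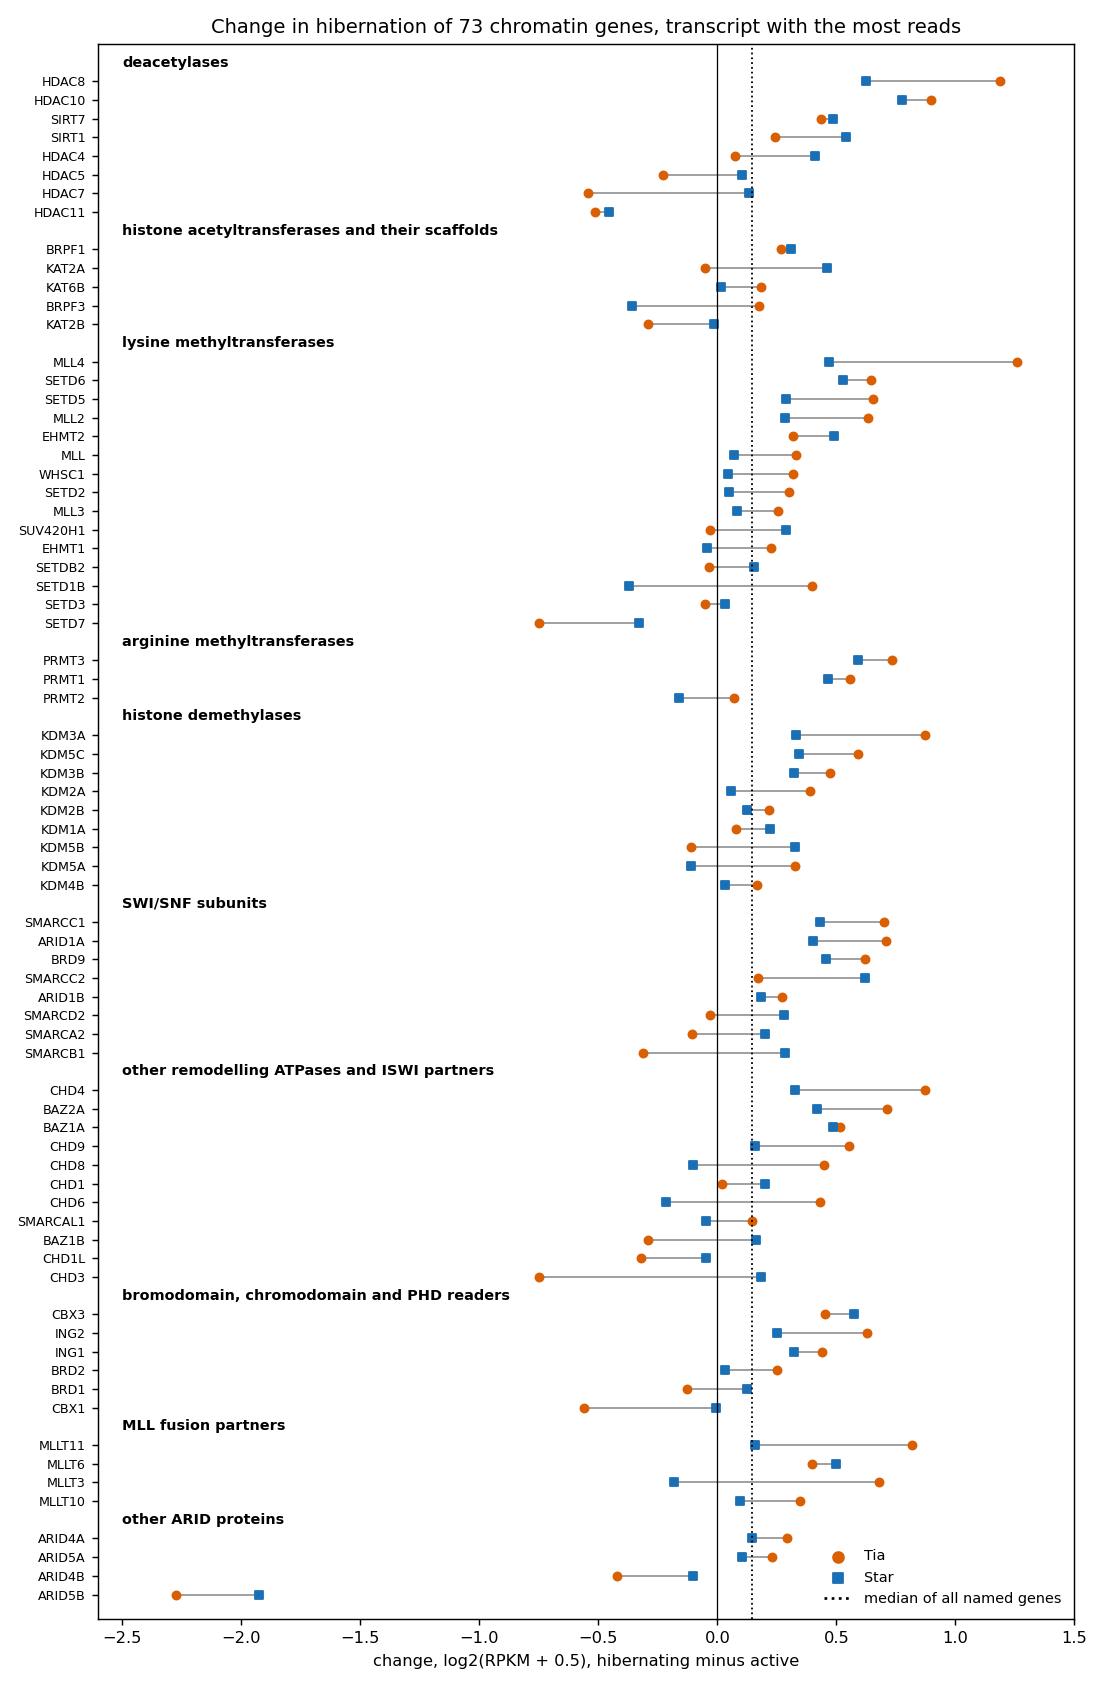
Change in log2(RPKM + 0.5), hibernating minus active, of 73 of the 74 chromatin genes in Tia (orange circles) and Star (blue squares), joined by a line, with genes grouped by family and ordered by mean change. The solid line is 0 and the dotted line the median over all 4873 named genes (0.15). Of the 73 genes drawn, 44 have both points right of 0 and 7 have both left of it.

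The subunits of SWI/SNF, the complex that opens nucleosomes at enhancers and promoters, differed among themselves. Of 8 genes, 5 were higher in both bears, against 48.7% of all named genes, and 3 were lower in Tia and higher in Star. Under the median-ratio and upper-quartile scalings 4 and 3 were higher in both. The subunits with the larger changes were SMARCC1, a core scaffold (0.56 ± 0.34), ARID1A, the targeting subunit of canonical BAF (0.56 ± 0.22), and BRD9, a bromodomain subunit of the non-canonical form (0.54 ± 0.20). ARID1A was at 2.54 and 4.47 RPKM in active and hibernating Tia and at 2.93 and 4.03 in Star. BRD9 was at 7.57 and 11.9 RPKM in Tia and at 8.18 and 11.4 in Star, and for both genes the states did not overlap. The ATPase SMARCA2 (BRM) was at 2.23 and 2.04 RPKM in Tia and at 1.85 and 2.197 in Star (0.05 ± 0.20). The core subunit SMARCB1 was at 5.92 and 4.66 RPKM in Tia and at 4.53 and 5.62 in Star, so the order of the states turned between the bears (-0.02 ± 0.25). SMARCD2, the most abundant subunit here, was at 16.8 and 16.4 RPKM in Tia and at 20.4 and 24.9 in Star (0.12 ± 0.27).

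Among the other remodellers, 5 of 11 genes were higher in both bears (48.7% of all named genes were), 1 was lower in both (16.1%) and 5 moved in opposite directions. Under median-ratio scaling 3 were higher and 3 lower, and under upper-quartile scaling 3 and 4. CHD4, the ATPase of the NuRD deacetylase complex, was at 3.60 and 7.003 RPKM in active and hibernating Tia and at 3.99 and 5.13 in Star (0.60 ± 0.25). Its paralog CHD3 went the other way in Tia, from 4.79 to 2.65 RPKM, while Star stood at 2.58 and 2.99 (-0.28 ± 0.31). The difference between the paralogs thus came from the Tia libraries, and it was not tested. BAZ2A, the subunit of the NoRC complex that silences ribosomal RNA genes, was higher in both bears for all 5 transcripts, and the longest was at 2.21 and 3.95 RPKM in Tia and at 2.36 and 3.32 in Star (0.57 ± 0.22). BAZ1A, a partner of the ISWI ATPases, changed by 0.50 ± 0.22 and its paralog BAZ1B by -0.07 ± 0.24. A short CHD6 transcript (isotig36178, 585 bases) was at 1.89 and 2.87 RPKM in Tia and at 1.26 and 2.90 in Star (0.72 ± 0.23). CHD1L, a remodeller recruited to sites of DNA damage, was slightly lower in both (-0.18 ± 0.22).

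Readers of histone marks went both ways, with 4 of 7 genes higher and 2 lower in both bears, against 48.7% and 16.1% of all named genes. Under either other scaling 3 were higher and 3 lower. The HP1 protein CBX3 was at 10.3 and 14.2 RPKM in active and hibernating Tia and at 7.96 and 12.1 in Star (0.51 ± 0.23). CBX1, another HP1 protein, was at 10.5 and 6.96 RPKM in Tia and level in Star (8.59 and 8.57, mean change -0.28 ± 0.23). BRD2, a BET protein that binds acetylated histones, was at 19.8 and 23.6 RPKM in Tia and at 23.7 and 24.2 in Star (0.14 ± 0.21). ING1 (0.38 ± 0.21) and ING2 (0.44 ± 0.22), PHD readers that tether SIN3 deacetylase complexes, were both higher in both bears. The MLLT genes, partners in MLL fusions rather than histone enzymes, entered through their name. Of these, MLLT6 changed by 0.45 ± 0.34, and MLLT11 by 0.49 ± 0.36, with 0.82 in Tia and 0.16 in Star. MLLT10 changed by 0.22 ± 0.32 and MLLT3 by 0.25 ± 0.30. As deposited, 3 of the 4 MLLT genes were higher in both bears, against 48.7% of all named genes, and under either other scaling 1 was.

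Transcripts of the same gene did not always move together. Of the 41 genes with several transcripts, 25 had a mean change above 0 for all of them, 7 below 0 for all, and 9 had transcripts on both sides. The widest range was that of HDAC10, whose 5 transcripts reached from -0.38 to 0.84. Its transcripts of 2915 and 2581 bases were higher in hibernation in both bears, whereas those of 1043 and 1009 bases were at 3.19 and 1.74 and at 2.49 and 1.05 RPKM in active and hibernating Tia. In Star the latter were at 3.69 and 3.58 and at 2.64 and 3.40 RPKM (-0.04 and 0.31). The longer pair changed by 0.78 and 0.72 in Star, so the fragments differed there too. A clear fall of the short pair was seen in Tia alone. The remaining transcript, of 1448 bases, changed by 0.42 in Tia and was level in Star (11.3 RPKM in both states). In SETD1B the abundant transcript changed by 0.40 in Tia and -0.37 in Star, while one of 1487 bases was at 1.65 and 4.41 RPKM in Tia and at 2.38 and 3.40 in Star (0.81 ± 0.26). The 7 transcripts of MLL2 (KMT2D) reached from -0.43 to 0.46, and their order in the bears differed. Its transcript isotig17325 was at 2.04 and 4.48 RPKM in active and hibernating Tia but at 3.92 and 2.44 in Star, the widest disagreement between the bears of any member (0.97 and -0.59). Its transcript isotig28269 changed by 0.93 in Tia and -0.10 in Star. For these genes the direction depends on which assembled fragment is read. The assembly was made without a bear genome, and whether such fragments are isoforms of 1 gene was not tested.

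**Figure D4:**
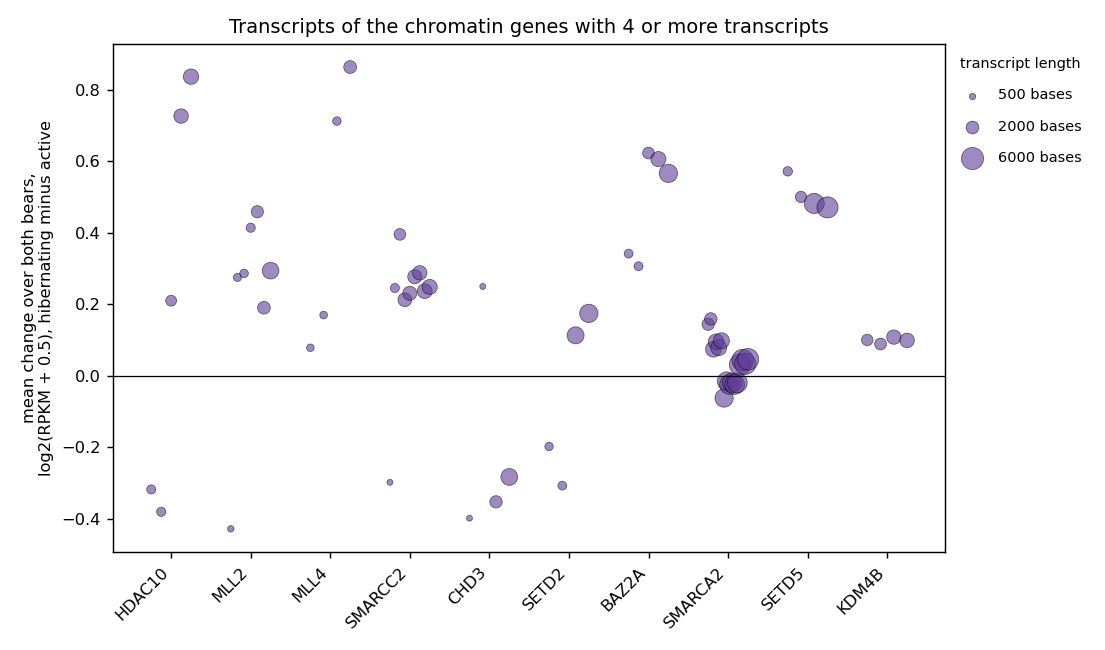
Mean change of both bears in log2(RPKM + 0.5), hibernating minus active, of every transcript of the 10 chromatin genes with 4 or more transcripts, from the widest range (HDAC10, left) to the narrowest (KDM4B). Each point is a transcript, its area grows with its length, and points are ordered by length within a gene. The transcripts of HDAC10, MLL2, SMARCC2, CHD3, SETD2 and SMARCA2 lie on both sides of 0, while those of MLL4, BAZ2A, SETD5 and KDM4B lie above it.

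Changes were larger in Tia than in Star. The median size of the change was 0.32 in Tia and 0.23 in Star for the members and 0.34 and 0.23 for all named transcripts. It was larger in Tia for 111 of 162 members (68.5%), against 63.0% of all named transcripts. Among members that moved in opposite directions, 26 (16%, against 11.9%) were higher in Tia and lower in Star and 38 (23.5%, against 23%) the reverse. The median difference between the bears within a state was 0.21 in activity and 0.27 in hibernation. The size of the change in Star lay between these values, and that in Tia above both. For orientation on the tissue, muscle markers were the most abundant of the markers examined (MYH1, MYH2, MYH7 and TTN summed to between 9467 and 13731 RPKM, 4 of 10 found). The 4 of 7 connective tissue markers found summed to 337 and 277 RPKM in active and hibernating Tia and to 160 and 230 in Star, but moved apart. COL1A1 was at 193 and 11.0 RPKM in Tia and at 6.79 and 9.15 in Star, while COL3A1, read from a fragment of 618 bases, was at 116 and 254 in Tia and at 136 and 210 in Star. PECAM1, the 1 of 5 endothelial markers found, was between 7.53 and 12.97 RPKM. The macrophage marker CD68, the 1 of 7 blood cell markers found, was at 3.94 and 6.41 RPKM in active and hibernating Tia and at 3.28 and 7.12 in Star. Thus CD68 was higher in hibernation in both bears like HDAC8, PRMT1 and PRMT3, and its part in those values was not tested.

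Partner proteins of the same complexes were also more often higher than lower in hibernation. Among 149 transcripts of 73 genes in 6 lists of related genes, 106 (71.1%, against 47.8% of all named transcripts) were higher in hibernation in both bears, 10 (6.71%, against 17.2%) were lower and 33 went in opposite directions. These lists include the MEF2 transcription factors given above, with 12 transcripts, of which 11 were higher in both bears. The median change of the 149 was 0.26, against 0.13 for all named transcripts, and none passed limma's test. Of the 149, 13 (8.72%, against 9.08%) had an unadjusted limma p under 0.05 and 4 (2.68%, against 3.61%) had a score of 0.8 or more. The subunits of deacetylase corepressors, the complexes in which HDAC and KDM1A enzymes act, were higher in both bears for 16 of 17 genes, against 48.7% of all named genes. Under the median-ratio and upper-quartile scalings 9 and 8 of the 17 were. SIN3A, the scaffold of the SIN3 complex, was at 4.27 and 8.20 RPKM in active and hibernating Tia and at 4.997 and 7.46 in Star (0.70 ± 0.22), followed by its partner PHF12 (0.61 ± 0.23), and BRMS1 had the smallest change (0.01 ± 0.24). BCL7A, a SWI/SNF subunit, was the partner with the largest change shared by both bears, at 4.10 and 8.36 RPKM in Tia and at 3.72 and 8.55 in Star (1.02 ± 0.21, score 0.83). Of the 10 remodelling partners found, 7 were higher in both bears, against 48.7% of all named genes, and 5 and 3 were under the respective scalings. INO80E, a subunit of the INO80 remodeller, was the 1 lower in both (-0.24 ± 0.22), against 16.1%. The second largest change was that of DPF2 (0.48 ± 0.27), a reader subunit of SWI/SNF, and ATRX, a remodeller of heterochromatin, changed by -0.03 ± 0.28.

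Coactivators and methyltransferase partners were more mixed, with 10 of 17 genes higher in both bears and 2 lower, against 48.7% and 16.1% of all named genes. Under either other scaling 4 were higher and 4 lower. TRRAP (listed as TRRAP.1), a scaffold of acetyltransferase complexes, changed by 0.49 ± 0.36 and the deubiquitinase USP22 by 0.48 ± 0.29. The acetyltransferase EP300, read from a transcript of 1937 bases, was at 15.6 and 20.1 RPKM in active and hibernating Tia and at 13.2 and 17.0 in Star (0.36 ± 0.22). Its longer transcripts, of 3451 and 2488 bases, were higher in Tia (0.34 and 0.35) and lower in Star (-0.13 and -0.04). The paralog CREBBP, read from a low transcript, changed by -0.28 ± 0.35, and the methyltransferase DOT1L by -0.13 ± 0.26. Of 11 Polycomb genes, which maintain silencing, 6 were higher in both bears (48.7% of all named genes were) and 1 lower (16.1%), and 2 were higher in both under either other scaling. RING1, a histone ubiquitin ligase, was at 3.56 and 6.67 RPKM in Tia and at 3.60 and 6.11 in Star (0.76 ± 0.22). Its paralog RNF2 changed by 0.31 ± 0.39, ASXL1 by -0.07 ± 0.22 and L3MBTL4 by -0.10 ± 0.25. Of 15 genes for histones, linker proteins and chaperones, 9 were higher in both bears, against 48.7% of all named genes, and 6 moved in opposite directions. Under either other scaling 5 were higher in both. The lowest were the chaperone subunit CHAF1B (-0.22 ± 0.39) and the variant histone H2AFZ (0.13 ± 0.21). The histone genes HIST2H2BF, HIST2H3A and HIST1H2BN had mean changes of 1.19, 0.80 and 0.79 that came from Tia. HIST1H2BN was at 22.6 and 71.2 RPKM in active and hibernating Tia and at 26.1 and 25.1 in Star. Histone genes of this kind mostly make messages without a poly(A) tail, and the RNA here was selected by its tail.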

How the data were processed

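RNA was poly(A)-selected and sequenced on an Illumina GAIIX. The authors assembled transcripts de novo (Newbler 2.3), named them by BLAST against human proteins (Ensembl 66), aligned the single-end reads with SOAP2 (at most 2 mismatches) and deposited RPKM values and transcript lengths, keeping transcripts at 1 RPKM or more in all 4 libraries. Whether the single-end cDNA had been normalized by nuclease is not given in the sources used here. Pooled and paired-end samples were not analysed here. The samples were grouped by the labelled hibernation status, with 2 libraries per state.

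Depth was read from the steps of the deposited RPKM times length: 94.5% to 95.2% of low values of short transcripts lay within 0.1 reads of a whole number. The log2(RPKM + 0.5) values were compared with limma (version 3.58.1, run in R 4.3.3, with a trended prior and Benjamini-Hochberg adjustment over 9093 named transcripts). The NOISeq-like score took 53228 differences between the bears within a state as noise, with a threshold of 0.8. Each bear gave a library in both states, which pairs them (Pearson r of the bears' deviations 0.356 over all named transcripts and 0.460 over the members), so a fit with the bear as a replicate block was an alternative. Other alternatives covered pseudocount, scaling, low values, prior, transcript choice and left-out libraries or bears. The fit was tested on simulated data. Genes named are ARID5B, members with a score of at least 0.8 or an unadjusted p under 0.05, the 2 largest rises and falls of each family and list, the 5 highest genes, and the 3 widest ranges between transcripts and between bears. Others were named after their values were seen, and the values of 2 genes that are counted are not reported here. Members, families and lists were chosen with earlier results of these data known. Python 3.11.15, pandas 2.3.3, numpy 2.4.6 and matplotlib 3.10.9 were used.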

Additional observations from a re-analysis of the deposited data

How the results depend on the processing

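ARID5B was lower in hibernation under all 14 alternatives run (log2 change -2.32 to -1.88). Limma called 0 members under each alternative except without the hibernating library of Star, where it called 1, ARID5B (change -2.06), and 92 of all 9093 (0.617% against 1.01%). That fit has 1 hibernating library, assumed to vary like the active ones. With the bear as a replicate block it called 0 members, and 27 (16.7%, against 13.5% of all named transcripts) had an unadjusted p under 0.05. Members with a score of 0.8 numbered 1 under median-ratio scaling, upper-quartile scaling, a mean RPKM of at least 5 or a threshold of 0.9, and 2 to 9 with a library left out, 9 without hibernating Star (5.56%, against 9.45%). Members higher in both bears numbered 54 under upper-quartile scaling (33.3%, against 26.4% of all named transcripts). When only 1 bear was asked they numbered 110 to 122 (67.9% to 75.3%, against 59.7% to 70.8%). Members lower in both numbered 35 and 38 under the median-ratio and upper-quartile scalings (21.6% and 23.5%, against 33.3% and 36.5%). With 1 bear they numbered 40 to 52 (24.7% to 32.1%, against 29.2% to 40.2%). A mean RPKM of at least 5 left 27 higher (52.9%, against 52.1%) and 5 lower (9.80%, against 16.5%), since fewer were counted. Likewise 1 transcript a gene left 44 (59.5%, against 48.7%) and 8 (10.8%, against 16.1%). Hibernating values lay all above the active ones for 18 (35.3%, against 38.4%) and 31 members (41.9%, against 35.8%) under these 2 choices, and for 84 to 95 with a library left out (51.9% to 58.6%, against 47.6% to 52.6%). They lay all below for 21 and 25 under the scalings and for 20 to 28 with a library left out (12.3% to 17.3%, against 17.0% to 26.1%). The median change was 0.0342 under median-ratio scaling, 0.00172 under upper-quartile scaling, 0.21 without SMARCA2 (chosen after seeing the data), and 0.14 to 0.22 with a library or bear left out. Filtering by the deposited minimum removed nothing. The score could not be made with 1 bear, which leaves no noise, nor could limma, which leaves no residual degrees of freedom. The median member had 379 to 523 reads per library and the lowest value rested on 23.0 reads.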

Other observations

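For 8 of 162 members (4.94%) the value in hibernating Tia was at least 1.5-fold below each of the other 3 libraries, against 7.42% of all named transcripts and 14.5% of the 2572 named transcripts under 1100 bases. The 8 were SETD7, a pair of HDAC10 transcripts, a pair of CHD3 transcripts, and single transcripts of HDAC7, MLL2 and SMARCC2, with a median length of 954 bases. MLL2 isotig39609 (510 bases) stood at 1.29 RPKM in hibernating Tia and between 2.65 and 3.07 in the other libraries. CHD3 isotig44133 (427 bases) stood at 1.36 RPKM there and between 2.76 and 3.24 elsewhere. Conversely, 11 members (6.79%, against 3.87% of all named transcripts) were highest in hibernating Tia by the same margin, with a median length of 2915 bases, among them KDM3A and SIRT1 isotig18373. Active Star was the highest library by this margin for 0 members and hibernating Star for 2, and hibernating Tia held 19 of the 27 member values that stood alone in this way (70.4%), against 49.0% of the 2096 such values among all named transcripts. This count was chosen after the values were seen, and length, the bear and the library were not separated.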
